A study of Caenorhabditis elegans with 2 samples.

Results

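The genes described here are the 5 TALE homeobox genes of the PBX and Meis types in Caenorhabditis elegans, ceh-20, ceh-40, ceh-60, unc-62 and psa-3, taken by name from 19973 nuclear protein-coding genes. For each, all CEH-20 peaks with a summit from 10 kb upstream of the gene to 10 kb past its end were collected. The peaks came from chromatin immunoprecipitation followed by sequencing (ChIP-seq) with an anti-GFP antibody in whole L4 larvae at 49 hours, grown from starved L1 larvae. All animals were of strain RW12211, genotype st12211[ceh-20::TY1::EGFP::3xFLAG] III, in which CRISPR placed a tag with eGFP in the endogenous ceh-20 gene. The 2 samples were biological replicates of this 1 group. Larvae without the tag and control libraries were not analysed here, so no change between conditions could be tested. Whole animals mix all tissues, so a weak peak in many cells and a strong one in few cannot be told apart.

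TALE homeodomain proteins carry extra residues in the loop between the first helices of the homeodomain. Proteins of the PBX type pair with Hox and with Meis-type partners on DNA, and in flies the Meis-type partner also helps carry the PBX-type protein into the nucleus. In C. elegans, ceh-20 codes for the main PBX-type protein, needed in the postembryonic mesoderm and in migrating neuroblasts. The gene ceh-40 codes for a related PBX-type protein that overlaps with it in the embryo, and ceh-60 for one known from the intestine, where it acts with UNC-62 on vitellogenin genes. The gene unc-62 codes for the Meis-type partner, and psa-3 for a further Meis-type protein that acts in asymmetric cell division in the tail. CEH-20 and the Hox protein NOB-1 are known to activate psa-3 there.

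CEH-20 peaks lay around 4 of the 5 genes, and ceh-40 had none. The main list was the authors' conservative one of 2522 peaks, derived from both libraries and filtered by IDR, the irreproducible discovery rate, which asks whether a peak's rank recurs in a second input. It held 14 summits in the 137.5 kb of the 5 windows: 5 at unc-62, 4 at ceh-60, 3 at ceh-20 and 2 at psa-3. Of all protein-coding genes, 35.6% had such a summit within 10 kb and 13.9% had 2 or more, as these 4 genes did. Each gene was also set beside genes whose windows were within 10% of its own in length. Of those, 4.50% had as many or more summits for ceh-20, 2.64% for ceh-60, 3.13% for unc-62 and 20.7% for psa-3. The windows of the 5 genes held 4.05 times as many conservative summits per kb as the genome. In the ranked list from which the conservative list was drawn, which has no threshold, that ratio was 1.42. Neighbouring genes share these windows, and 7 of the 14 summits were nearer to a start of one of the 5 genes than to any other protein-coding start. For all pairs of a gene and a summit within 10 kb, that held for 21.7%. Of the 7, 5 were at unc-62, which has 15 annotated starts and 2 other protein-coding genes in its window. None was at ceh-60, so the 7 mainly describe unc-62 and not the 5 genes as a set.

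The sequences around the summits that the results turn on are shown first. They were read from the RefSeq genome of WBcel235, the assembly also named ce11, plus strand, 5′ to 3′, each with its summit at the centre of 101 bases. Capitals mark matches on either strand to 3 motifs known for these proteins: TGATNNAT, the PBX-Hox composite; TGATTGAC, the PBX-Meis composite; and TGACAG, the Meis core.
psa-3, first intron, the strongest of the 14 peaks (chrX:15408770-15408870): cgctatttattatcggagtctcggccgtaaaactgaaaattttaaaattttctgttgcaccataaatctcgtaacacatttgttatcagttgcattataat
ceh-20, promoter, the strongest at the gene itself (chrIII:6979101-6979201): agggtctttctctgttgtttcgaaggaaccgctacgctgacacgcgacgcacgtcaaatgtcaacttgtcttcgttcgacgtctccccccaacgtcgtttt
unc-62, upstream, the strongest outside the gene (chrV:4495208-4495308): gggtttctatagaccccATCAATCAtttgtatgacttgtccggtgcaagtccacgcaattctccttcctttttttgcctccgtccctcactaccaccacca
ceh-60, downstream, the strongest at that gene (chrX:6517547-6517647): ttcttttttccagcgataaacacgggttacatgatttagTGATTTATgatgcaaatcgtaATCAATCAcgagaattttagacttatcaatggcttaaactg
The ceh-60 window held 2 composite sites and the unc-62 window 1. The psa-3 and ceh-20 windows, at the top 2 peaks of the 14, held none of the 3 motifs.

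**Figure D1:**
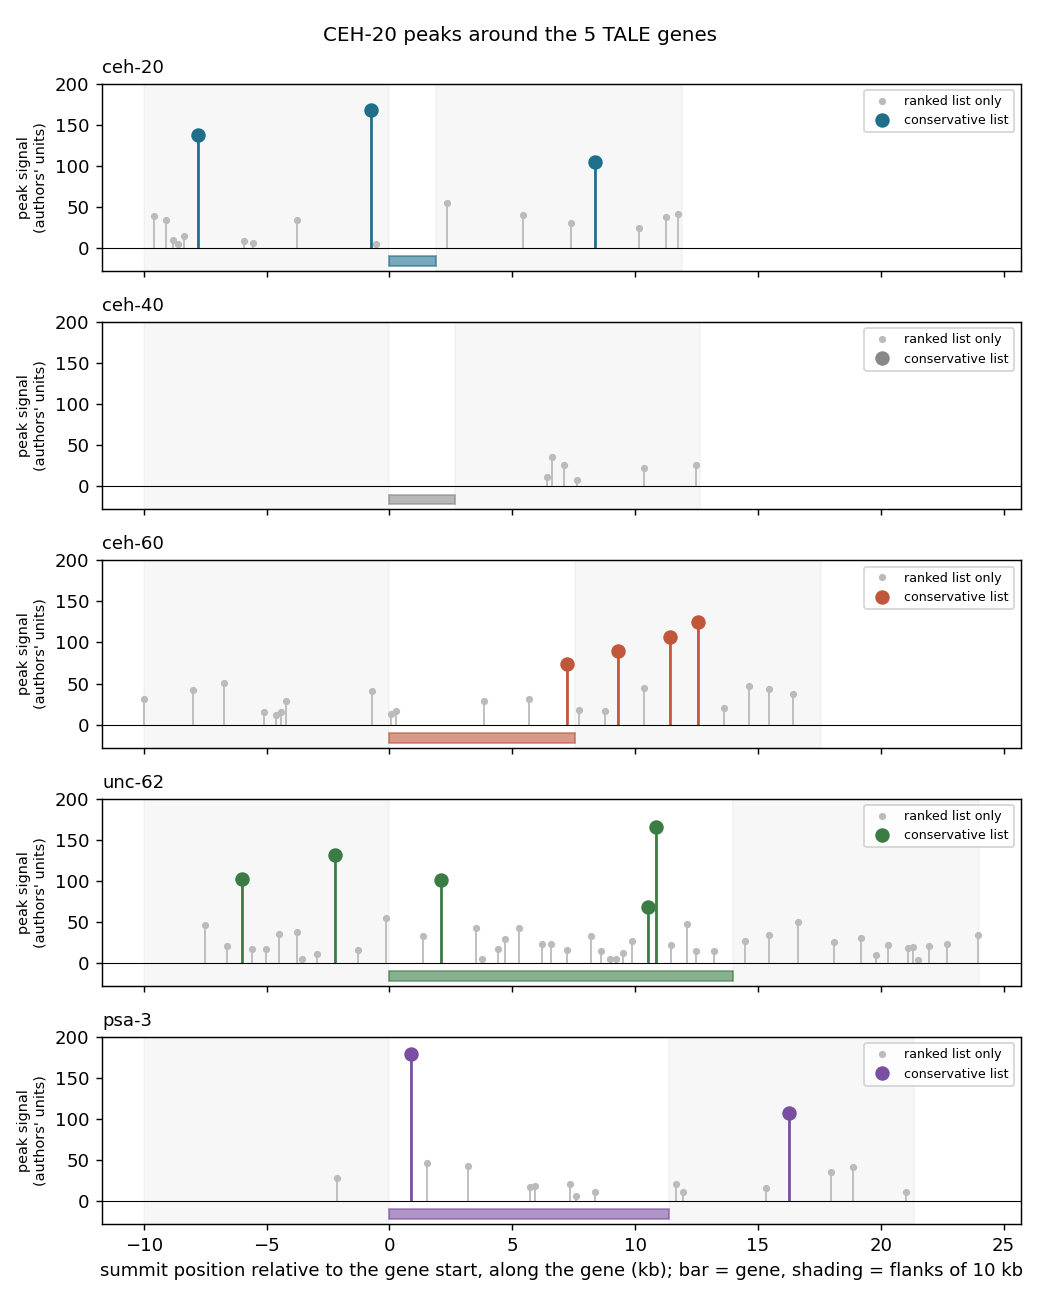
Peaks around each gene by position along the gene (kb from the gene start, with the 10 kb flanks shaded and the gene as a bar) and by the authors' peak signal; large points are conservative peaks and small points are in the ranked list only. Conservative peaks reach 179 at psa-3, 168 at ceh-20, 165 at unc-62 and 125 at ceh-60, while no point at ceh-40 passes 35.4.

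The tagged gene ceh-20, the PBX-type gene on chromosome III (6979884 to 6981785, plus strand), had a conservative peak in its own promoter (chrIII:6978993-6979308). Its summit lay between genes, 733 bp upstream of the only annotated start, which was also the nearest start of any gene. Its signal was 168 (the authors' own value per peak; its scale is not stated in any source used), rank 232 of the 2522. In the ranked lists of the single replicates the overlapping peak had a signal of 67.5 in replicate 1 (rank 480 of 40237) and of 96.6 in replicate 2 (rank 169 of 36837). It passed the threshold in both replicates, with summits 9 bp apart.

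The other conservative peaks in the ceh-20 window lay nearer to other genes. A peak of 138 was 7798 bp upstream of ceh-20 but 167 bp upstream of rfc-4, a gene for a subunit of the clamp loader replication factor C, and 1 bp from the annotated start of the miRNA gene cel-mir-5549. It had 76.0 in replicate 1 and 63.9 in replicate 2 and was in both thresholded lists. A peak of 105 lay 6454 bp past the end of ceh-20 and 1929 bp upstream of prk-1, a gene for a serine/threonine kinase of the PIM type. It had 63.0 in replicate 1 and 35.5 in replicate 2, and was in the thresholded list of replicate 1 alone.

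A further ceh-20 peak, in the larger thresholded list of 2632 peaks but not in the conservative one, was very weak. Its summit lay 528 bp upstream of the start, its signal was 4.63, rank 2599, and it overlapped the strong promoter peak by 111 bp. Its IDR score, which the authors scale up to 1000, was 1000 in the ranked list behind the larger list and 86 in that behind the conservative list. In the former the matching inputs had signals of 76.0 and 86.3, the same as for the strong peak beside it. Close to the summit of this weak peak, 538 bp upstream of ceh-20 and 14 bp past the end of the strong peak, a PBX-Hox composite stood between 2 Meis cores that face each other in opposite orientation.
ceh-20, site beside the promoter peak (chrIII:6979316-6979352): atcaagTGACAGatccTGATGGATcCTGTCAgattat
The conservative peak itself held no match to any of the 6 motifs searched, in its whole width.

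The PBX-type gene ceh-40, on chromosome X (12318126 to 12320777, minus strand), had no summit in any of the 4 thresholded lists. The conservative ranked list held 6 weak peaks in its window, all past the end of the gene, with signals from 7.32 to 35.4. The strongest was at rank 10226 of 56499 and lay 1413 bp upstream of xtr-2. Replicate 1 had 2 ranked peaks there, the stronger at 19.7 (rank 13200), and replicate 2 also had 2, the stronger at 17.98 (rank 11016), near a different gene, 130 bp upstream of F17A2.16. No ranked list held a summit within 500 bp of the ceh-40 start. The nearest conservative summit, of 76.2, lay 27.3 kb before the gene.

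The PBX-type gene ceh-60, on chromosome X (6522596 to 6530146, minus strand), had 4 conservative peaks, none at its start. One lay in a coding exon near its end and 3 past its end, and for each the nearest protein-coding start was that of ets-4, a gene for an ETS-family transcription factor. The strongest, of 125 (chrX:6517439-6517754, rank 514), was 4999 bp past the end of ceh-60 and 1286 bp upstream of ets-4. It had 66.0 in replicate 1 (rank 513) and 66.2 in replicate 2 (rank 448). It was the only one of the 4 in both replicates' thresholded lists.

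The other ceh-60 peaks stood lower in replicate 1 than in replicate 2. A peak of 106, 163 bp upstream of ets-4, had 47.9 in replicate 1 and 55.3 in replicate 2. A peak of 89.5 in an intron of ets-4 had 31.8 and 52.1, and a peak of 73.9 in a coding exon of ceh-60, 336 bp before the gene's end, had 28.7 and 43.1. All 3 passed the threshold in replicate 2 only, and in replicate 1 they ranked 1088, 3175 and 4261. In the promoter window of ceh-60, which reaches 2000 bp upstream of its start, the strongest peak of the conservative ranked list was at 40.3 (rank 7066 of 56499), 706 bp upstream. Replicate 1 had a peak of 22.7 there (rank 8896), replicate 2 had no ranked peak in that window, and no thresholded list held one. Within 500 bp of the start the strongest was at 16.1 (rank 40157).

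The Meis-type gene unc-62, on chromosome V (4497461 to 4511449, plus strand), had the most peaks of the 5 genes, and each of the 5 was nearest to a start of unc-62 itself. As many or more conservative summits stood within 10 kb of 145 of the 19973 protein-coding genes (0.726%). Among 607 genes whose windows were within 10% of the length of that of unc-62, 3.13% had as many or more. The annotation gives unc-62 18 transcripts from 15 distinct starts. These form 8 groups when starts within 500 bp of the next are joined.

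A pair of unc-62 peaks lay upstream of the gene. The farther (chrV:4491295-4491610), 6008 bp upstream of the first start, had a signal of 103, with 59.1 in replicate 1 and 53.4 in replicate 2. The nearer (chrV:4495100-4495415), 2203 bp upstream, had a signal of 132 and differed more between replicates, with 45.4 in replicate 1 (rank 1240) and 88.1 in replicate 2 (rank 208). Both were in both thresholded lists, and both were intergenic.

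One peak lay at an alternative start of unc-62. It had a signal of 101.3, stood 58 bp downstream of a start in the second group (4499327 to 4499796, 5 transcripts), and its summit was in the 5′ UTR of 4 transcripts and in the first intron of 5 others. It had 52.4 in replicate 1 and 45.3 in replicate 2 and passed in both. The second was the only one of the 8 start groups with a conservative summit within 500 bp. At the first group, which also holds 5 transcripts, the strongest ranked peak was at 54.5 (rank 3255), 146 bp upstream, with 35.1 in replicate 1 and 19.5 in replicate 2, outside every thresholded list. At the other 6 groups the strongest peak of the conservative ranked list within 500 bp had between 15.8 and 42.2.

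The last peaks of unc-62 lay far inside the gene, downstream of its last start (4507204). The stronger (chrV:4508207-4508406), 1109 bp downstream of that start, had a signal of 165, rank 244, and was the strongest of the 5. In replicate 1 the matching peak was narrow, 87 bp, with a signal of 108.9 (rank 135), and in replicate 2 it was 280 bp wide with 60.4 (rank 547) and a summit 92 bp away. The weaker (chrV:4507809-4508124) had a signal of 68.4 and was in the thresholded list of replicate 2, at 54.8. The deposited ranked list of replicate 1 holds no peak that overlaps it, while the conservative ranked list records for it a first-input peak of 37.8. For the other 13 conservative peaks the first-input value equals a signal in the ranked list of replicate 1, and why this one does not was not tested. Both summits were in the 5′ UTR of the 1 transcript that begins at the last start and in introns of all others.

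The Meis-type gene psa-3, on chromosome X (15407931 to 15419298, plus strand), had the strongest of the 14 peaks. It lay in the first intron of 2 transcripts (chrX:15408662-15408977), 313 bp downstream of the second annotated start and 235 bp upstream of the third. Its signal was 179, rank 201, with 73.8 in replicate 1 (rank 378) and 93.3 in replicate 2 (rank 185), and summits only 3 bp apart. A second peak in the window, of 107, was 4908 bp past the end of psa-3 and lay in a coding exon of F39D8.3, 107 bp upstream of one of its starts. It had 47.2 in replicate 1 and 58.5 in replicate 2 and passed the threshold in replicate 2 only.

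**Figure D2:**
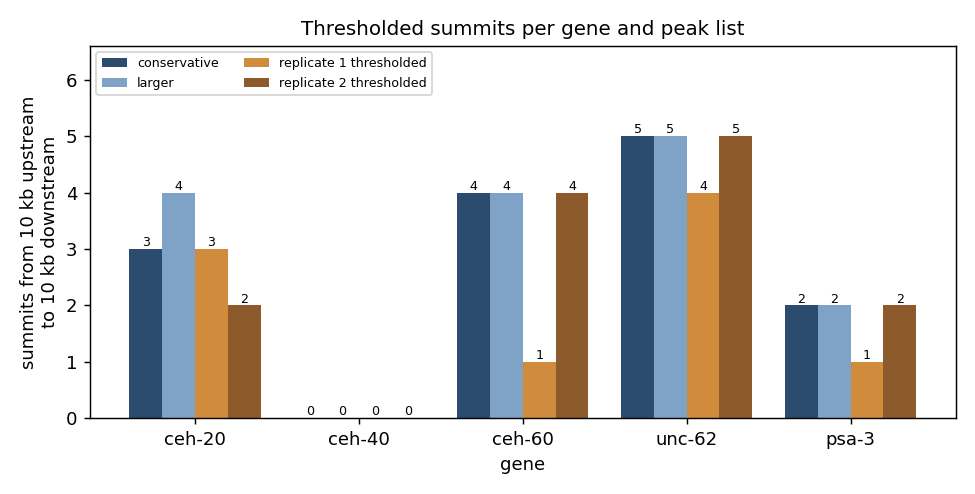
Number of summits from 10 kb upstream to 10 kb downstream of each gene in the 4 thresholded lists. The lists of single replicates differ most at ceh-60, with 1 summit in replicate 1 and 4 in replicate 2, and all 4 lists have 0 at ceh-40.

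With a promoter window that reaches from 2000 bp before a start to 500 bp past it, 3 of the 5 genes had a conservative peak: ceh-20, unc-62 and psa-3. The share over all protein-coding genes was 9.57%. The window was taken at every annotated start, 15 at unc-62 and 4 at psa-3, and the share was not matched for the number of starts. The count of 3 genes held in the larger list and in the list of each replicate, and 2 genes, unc-62 and psa-3, had a conservative summit within 500 bp of a start. For ceh-20 the 2 peaks in the larger list's promoter window were the strong one and the weak one beside it.

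The strongest peak per gene gave no stable order for psa-3, ceh-20 and unc-62. In the conservative list they were at 179, 168 and 165. In replicate 1 unc-62 led with 108.9, before ceh-20 with 76.0 and psa-3 with 73.8. In replicate 2 ceh-20 led with 96.6, before psa-3 with 93.3 and unc-62 with 88.1. The peaks behind these values also changed, since unc-62 led with its internal peak in replicate 1 and with its near upstream peak in replicate 2, and ceh-20 led with the peak at rfc-4 in replicate 1. In both replicates ceh-60 came next, with 66.0 and 66.2, and ceh-40 last. With 2 samples, psa-3, ceh-20 and unc-62 could not be ordered beyond the spread between replicates.

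**Figure D3:**
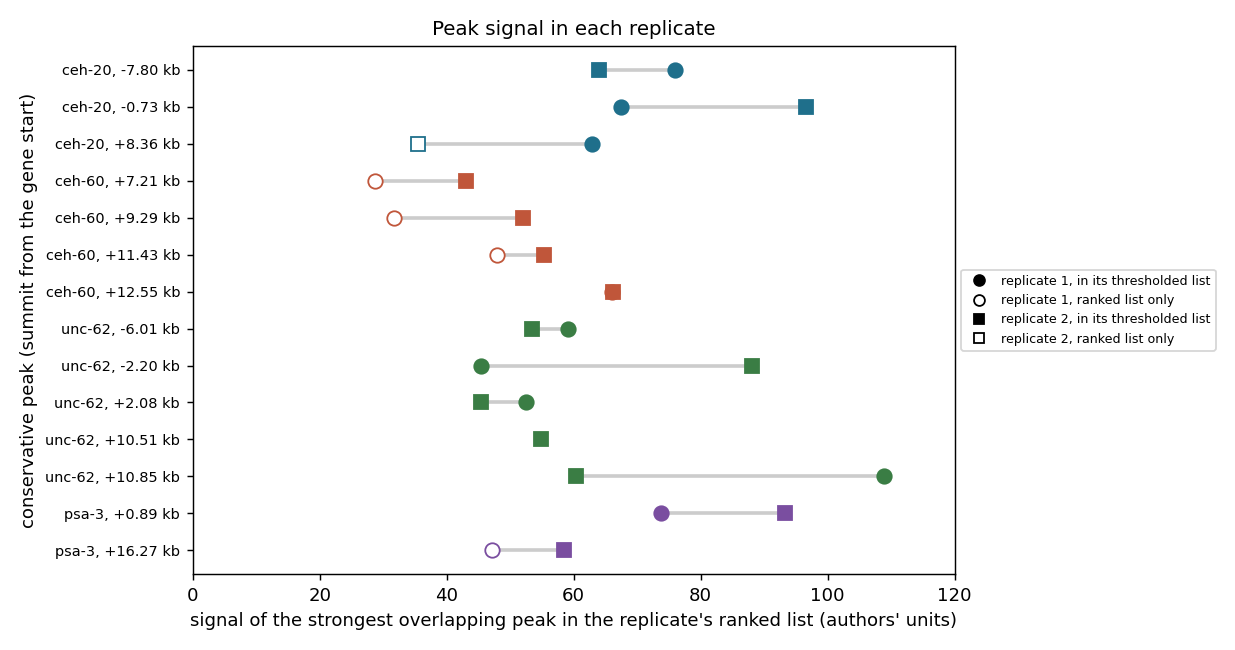
Signal in the authors' units of the strongest overlapping peak in the ranked list of replicate 1 (circles) and replicate 2 (squares) for the 14 conservative peaks, named by gene and summit position; filled symbols are in that replicate's thresholded list. At +12.55 kb of ceh-60 the symbols coincide, at 66.0 and 66.2, and at +10.51 kb of unc-62 no circle is drawn, since the deposited ranked list of replicate 1 has no overlapping peak, although the conservative ranked list gives a first-input value of 37.8.

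Of the 14 peaks, 8 were in the thresholded lists of both replicates (57.1%), where 34.1% of all conservative peaks were. A further 5 were in that of replicate 2 only and 1 in that of replicate 1 only. The 5 were 3 at ceh-60, 1 inside unc-62 and 1 at F39D8.3 in the psa-3 window. The 1 was the peak upstream of prk-1 in the ceh-20 window. The thresholded list of replicate 2 is the longer, with 1490 peaks against 1249 for replicate 1. Shares of all conservative peaks in the list of only 1 replicate are not given here. The split of 5 and 1 is therefore not read as a trait of these genes. Signals of the 14 ran from 68.4 to 179 with a median of 107, against 83.2 for the whole conservative list, and 12 of them stood above that list's median. The summits of the replicates lay a median of 18 bp apart and at most 115 bp, the latter at the ceh-60 exon peak.

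Matches to the PBX-Hox composite lay within 50 bp of the summit in 5 of the 14 peaks. They were the peaks at ceh-60 in the ets-4 intron and farthest downstream, the near upstream and the weaker internal peak of unc-62, and the peak at F39D8.3. In all conservative peaks the share was 10.2%. Within 25 bp of the summit it was 1 of 14 (7.14%) against 5.35%. Over the whole width of a peak it was 9 of 14 (64.3%) against 24.3%, and all 4 peaks at ceh-60 then held a match. The strongest of the 14, with signals of 179, 168, 165 and 138, held none of the PBX and Meis motifs in their whole width. The 9 peaks with a composite had 10 sites, of which 4 read TGATTGAT, the most frequent form in the whole list as well (150 of 795 sites, 18.9%). Peaks of 1 gene are not independent, and these are descriptions of letters, not of binding.

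Matches to the Meis core and the PBX-Meis composite were fewer. The core lay within 50 bp of 1 of the 14 summits, that at the alternative start of unc-62, against 4.88% of all conservative peaks. That peak held a second core 148 bp from its summit and a PBX-Hox composite 86 bp from it. No summit of the 14 had a whole PBX-Meis composite within 50 bp, where 0.753% of all peaks did. Over the whole width of a peak, 1 of the 14 held a Meis core (12.8% of all) and 1 a PBX-Meis composite (1.63% of all). That composite lay in the farther upstream peak of unc-62 and begins 44 bp from its summit. It is printed here on the minus strand with 10 bases on each side.
unc-62, farther upstream peak (chrV:4491487-4491514): cccctgatttTGATTGACatgtagacga
Of the remaining motifs searched on both strands, which were added from earlier results of these data, GAGAGA lay within 50 bp of 3 of the 14 summits (22.3% of all), AGACGCAG of 1 (7.30%) and CACGTG of none (5.43%). The median content of G and C in the 101 bases was 45.0% in the 14 and 46.5% in all conservative peaks.

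**Figure D4:**
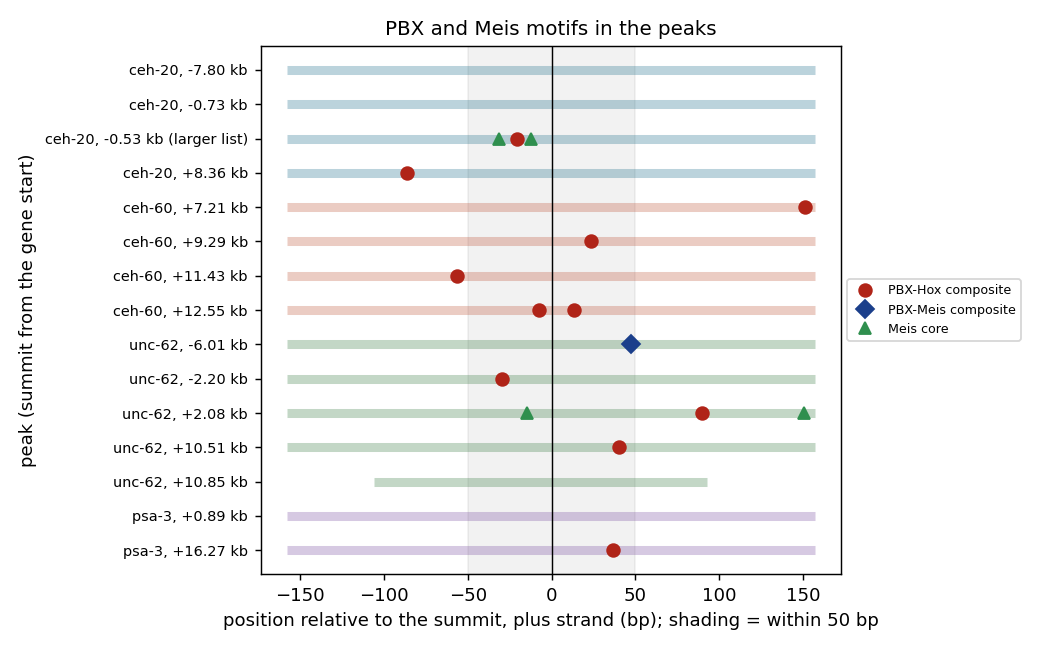
Positions of the 3 PBX and Meis motifs (bp from the summit, plus strand) in the 14 conservative peaks and the weak ceh-20 peak of the larger list; bars are the peaks and shading is 50 bp on each side. The weak ceh-20 peak has a composite between 2 Meis cores, and the strongest ceh-60 peak, at +12.55 kb, has 2 composites.

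Genes with the most similar promoter peaks were found from the percentile of the strongest signal in the promoter window in the ranked lists of the 2 replicates, over 9713 genes with a peak in both. For ceh-20 the nearest was pinn-1, with 66.5 and 96.4 in replicates 1 and 2 against 67.5 and 96.6. For psa-3 it was F44E7.4, with 74.0 and 88.2 against 73.8 and 93.3. For unc-62 it was R12E2.13, with 51.9 and 44.6 against 52.4 and 45.3. The genes ceh-40 and ceh-60 had no peak in that window in at least 1 replicate.

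Among the partners and relatives of the 5 genes, 5 of 6 Hox genes had a conservative summit within 10 kb and 3 had one in the promoter window. Over all protein-coding genes the shares were 35.6% and 9.57%. Within 10 kb ceh-13 had 5 summits, lin-39 and mab-5 had 2 each, egl-5 had none, and php-3 and nob-1 shared 1 of 149. In the lists of single replicates ceh-13 had 1 in each, mab-5 had 0 in replicate 1 and 1 in replicate 2, and lin-39 had 1 and 2. For php-3 and nob-1 the count was 1 in each list. The remaining TALE gene tested, irx-1, of the Iroquois type, had 1 of 54.1 within 10 kb and none in its promoter window. Of 6 vitellogenin genes, which code for yolk proteins, vit-2 had 3 summits with at most 49.1, of which 2 were in its promoter window, and vit-6 had 1 of 124, outside its promoter window. The list of replicate 1 held 1 summit at each of these genes and that of replicate 2 held 0. The other 4 had none, which leaves 2 of 6 with a conservative summit within 10 kb, near the share over all genes (35.6%).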

How the data were processed

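Per the deposited file descriptions, the 8 peak lists use assembly ce11, and each goes back to alignments of a single library (4 lists) or of both (4 lists). For the peak caller and the aligner, a name is not given in the sources used here. Deposited for each peak are the authors' signal, a score scaled by IDR up to 1000, and a q-value as −log10. No read counts are given, so depth is unknown. Signals are given as deposited, many with their rank within a list. Signals of the 2 replicates set side by side were not adjusted for depth. Where a replicate's value is given, it is that of its strongest ranked peak overlapping by at least 1 bp.

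No peak passed a chromosome end of WBcel235. Genes came from Ensembl release 115, without mitochondrial genes. Motifs were searched on both strands, palindromes once. Percentages over all genes or all peaks are descriptions, with no test. The window, overlap and motif steps were tested on simulated data. The members, lists and motifs were chosen with earlier results of these data known; named genes were the members, the nearest starts of their peaks, the relatives listed and the most similar promoters. Alternatives were the other lists, single replicates, smaller windows, stricter overlaps and other motif windows. Protein sequences were not used here. Scripts ran in Python 3.11.15 with pandas 2.3.3 and numpy 2.4.6, and figures in matplotlib 3.10.9.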

Additional observations from a re-analysis of the deposited data

How the results depend on the processing

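CEH-20 peaks stood near 4 of the 5 genes under every list and window tried, and near 3 when a summit counted only for its nearest protein-coding start, which leaves out ceh-60. The 14 summits near the genes became 9 in the list of replicate 1 alone and 13 in that of replicate 2 alone, and 7 in windows of 2 kb. In windows of 2 kb, 4 were in both replicates' lists and 2 had a PBX-Hox composite within 50 bp. The 5 summits with that composite became 2 in the list of replicate 1 alone and stayed at 5 in that of replicate 2 alone. They became 1 within 25 bp of the summit (5.35% of all conservative peaks) and 9 over the whole peak (24.3%). The other alternatives for these counts moved them by less than 1.5 times or not at all. Per gene, the list of replicate 1 gave 1 summit in place of 4 at ceh-60 and 1 in place of 2 at psa-3. Windows of 2 kb gave 1 in place of 3 at ceh-20 (also in windows of 5 kb), 2 in place of 4 at ceh-60, 3 in place of 5 at unc-62 and 1 in place of 2 at psa-3. The cause of these shifts was not tested, apart from the smaller windows, which hold fewer positions by construction. With 2 samples of 1 group and no read counts, depth is unknown. Differences between the replicates in signal and in these counts were not adjusted for it. No paired analysis was possible because both samples belong to 1 group.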

Other observations

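The cluster of peaks at unc-62 lay between long gaps without conservative summits, though not the longest in the list. Beyond its 5 conservative summits, which span 16.9 kb, the next summit lay 265 kb upstream and 222 kb downstream, where the median spacing of neighbouring summits in the list was 16.6 kb. Of 2516 such gaps, 29 were as long as the upstream one and 42 as long as the downstream one. At ceh-20 the gaps were 73.3 and 166 kb, at ceh-60 48.4 and 61.0 kb, and at psa-3 22.7 and 68.7 kb. This was looked at after the values were seen.

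The arrangement beside the ceh-20 promoter peak was searched for across the 6 chromosomes, also after it was seen. A PBX-Hox composite with a Meis core on each side, in either orientation and at most 20 bp away, occurred at 9 places. None of the 9 overlapped a conservative peak, and 1, that at ceh-20, overlapped a peak of the larger list, which is the weak one of 4.63. That overlap was given in advance, since the arrangement was taken from this site. The 2522 conservative peaks, of a median width of 316 bp, cover a small part of the 100.3 Mb genome. Any 9 places would thus mostly miss them, and the count of none does not show that the arrangement is unbound.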
